A study of Mus musculus with 6 samples.

Results

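The comparison is the difference in time response between NIH3T3 cells with mutant and with wild-type LPAR1. NIH3T3 is a line of mouse embryonic fibroblasts. The difference in response of a gene's probe set at 60 minutes is its change from 0 to 60 minutes in mutant cells minus the same change in wild-type cells, and the difference at 120 minutes is formed in the same way. Of 45101 probe sets on the array, 34945 that are no hybridisation controls were paired with 1 gene symbol and are the members. They covered 18193 genes. Where a gene had several probe sets the brightest on average was taken. Genes whose mean level was under the 40th percentile, which fell at an intensity of 39.2 and is called the filter level, were left out, and 10916 genes remained for the test.

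The 6 groups were wild-type LPAR1 at 0, 60 and 120 minutes and mutant LPAR1 at 0, 60 and 120 minutes, with 1 Affymetrix array each. All groups are the same cell line. The labels give neither the mutation, nor whether the receptor was introduced, nor the treatment that starts the clock, nor the number of cultures or clones. The p-values below therefore do not measure spread between cultures. They rest on the gap between the 60 and 120 minute differences in response. In that gap, noise of single arrays, which may be technical, and a real change with time cannot be told apart.

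LPAR1 sits in the plasma membrane, binds the serum lipid lysophosphatidic acid and signals through G proteins. Through Gq, Gi and G12/13 proteins it activates the ERK kinase cascade and actin polymerisation. ERK phosphorylates ternary complex factors, and actin polymerisation frees the coactivator MRTF, and both act with the transcription factor SRF at a DNA element called the CArG box. Genes such as Fos and Egr1, which need no new protein synthesis to be transcribed, form the immediate early response, and their products and feedback inhibitors shape the hours that follow.

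Mean intensity per array lay between 299 and 308. Of 14 fibroblast markers 12 were tested, and their median late difference in response was -0.015. The 5' over 3' signal of control transcripts, a sign of RNA integrity and labelling, differed most between genotypes at 0 minutes for Actb (0.579 in wild-type and 0.505 in mutant cells, against 0.650 and 0.683 at 60 and 0.699 and 0.661 at 120 minutes). The log2 difference in response of this ratio was 0.27 at 60 and 0.12 at 120 minutes for Actb, 0.10 and 0.15 for Gapdh, and 0.29 and 0.14 for the pyruvate carboxylase gene Pcx. For Tfrc, the transferrin receptor gene, it was 0.91 and -0.05, the largest at 60 minutes. The part of these ratios in the results was not tested. The 0 minute arrays enter both differences in response, so the differences at 60 and 120 minutes are not separate measurements of them.

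Few genes responded differently in mutant cells by the test. Levels were compared as log2(intensity + 16), a scale that understates differences at low intensity. Folds given below are likewise of intensity + 16, so at low intensity they are smaller than ratios of the printed intensities. The late difference in response is the mean of the 60 and 120 minute differences, and limma tested it against the gap between the later times, with 1 residual degree of freedom to which shrinkage across genes added 23.8. Of 10916 genes, 5 passed at a Benjamini-Hochberg adjusted p of 0.05 (0.0458%). The response in mutant cells was higher for 3 of them (0.0275%) and lower for 2 (0.0183%), and higher and lower refer to the response below. At an unadjusted p under 0.05 there were 150 higher (1.37%) and 236 lower (2.16%), 3.54% in all. Without a test, 3 genes (0.0275%) were at least 1.5-fold higher and 24 (0.22%) at least 1.5-fold lower at both later times, 0.247% in all. The 5 calls rest on shrinkage that follows the trend of spread with level: without the trend, with quantile normalization or with an offset of 64 in place of 16, 0 genes passed (271, 525 and 326 at an unadjusted p under 0.05).

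The typical gene moved alike in both genotypes. The median difference in response over all genes tested was 0.023 at 60 minutes, with quartiles of -0.086 and 0.13, and -0.031 at 120 minutes, with quartiles of -0.15 and 0.080. The gap between the 60 and 120 minute differences had a median size of 0.12, which was 0.18 in the 3638 dimmest genes and 0.090 in the 3639 brightest. Of the 27 genes at least 1.5-fold apart at both times, 24 lay among these dimmest genes, which span mean intensities from 39.2 to 171, and 0 among the brightest. The plot of the late difference against level shows this widening at low intensity.

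**Figure D1:**
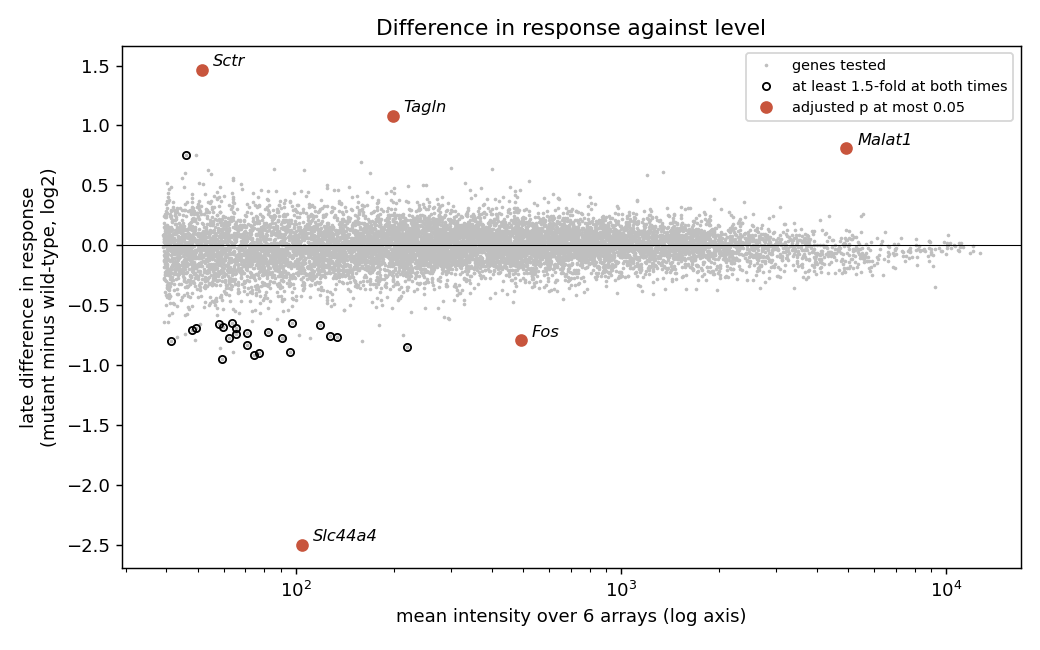
Late difference in response (mutant minus wild-type, log2) of the 10916 genes tested against mean intensity over the 6 arrays on a log axis. Filled points are the 5 genes that passed limma's test, open circles those at least 1.5-fold apart at both later times, and Fos and Malat1 are the passing genes at high intensity that stand clear of the band of grey points.

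Fos, which encodes a subunit of the transcription factor AP-1, passed with a lower response in mutant cells. In wild-type cells its intensity was 633 at 0, 2516 at 60 and 136 at 120 minutes. In mutant cells it was 595, 1486 and 59.7. The genotypes were close at 0 minutes and apart at both later times, and all 6 values lay above the filter level. At 60 minutes Fos stood 3.90-fold above its 0 minute level in wild-type and 2.46-fold above it in mutant cells, and at 120 minutes 4.27-fold and 8.07-fold below it. The difference in response was -0.66 at 60 and -0.92 at 120 minutes, with a late difference of -0.79 ± 0.15 (SE, 6 arrays; limma adjusted p = 0.0323). The call was lost with offset 64 (adjusted p = 0.56, late difference -0.63), without the trend (1.0), with quantile normalization (0.225) and when every probe set was fitted on its own (0.0986), with the late difference at or below -0.63 in each.

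Arc and Acta1 were likewise lower in mutant cells at both later times but did not pass. Arc, an immediate early gene best known from neurons, had intensities of 17.6, 665 and 201 at 0, 60 and 120 minutes in wild-type and 21.1, 435 and 122 in mutant cells. Its difference in response was -0.74 and -0.80 (late -0.77 ± 0.19; adjusted p = 0.451), and at 0 minutes neither genotype reached the filter level. Acta1, the skeletal muscle actin and an SRF target, had 50.6, 249 and 372 in wild-type and 38.2, 116 and 164 in mutant cells. The difference in response of Acta1 was -0.71 and -0.81 (late -0.76 ± 0.19; adjusted p = 0.451), and its mutant value at 0 minutes was under the filter level. For each of these genes both later mutant values lay below both later wild-type values of the same time by at least 1.51-fold. Acta1 was the 1 tested gene of 6 skeletal muscle markers; Ckm, Des, Myh3, Myod1 and Myog were below the filter level.

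**Figure D2:**
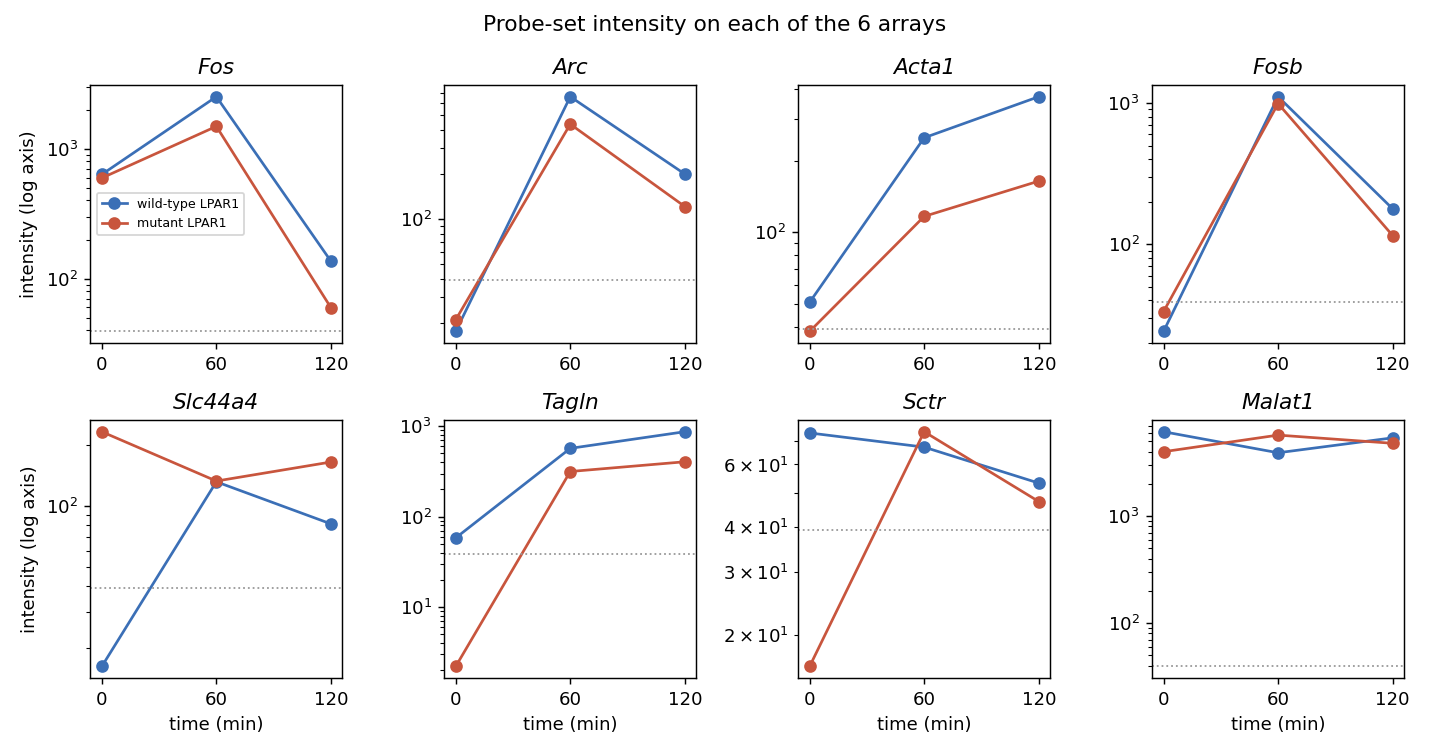
Probe-set intensity on each of the 6 arrays (log axis, 1 point per array, no replicate) against time in minutes for wild-type (blue) and mutant (red) LPAR1, with the filter level of 39.2 as a dotted line. Fos, Arc and Acta1 come apart after 0 minutes, while Slc44a4, Tagln and Sctr are farthest apart at 0 minutes, where 1 array of each lies below the dotted line.

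Short windows around the start of Fos, Acta1 and Dusp5 differed in their matches to the CArG box. Windows from 250 bases before to 50 after the transcription start were taken from RefSeq on GRCm38.p6 for Fos at chr12:85473640-85473939 on the plus strand, Acta1 at chr8:123894726-123895025 on the minus strand, and Dusp5, an ERK phosphatase described below, at chr19:53528895-53529194 on the plus strand. They are shown because the late difference of these 3 genes was below 0 while the matches in these windows differed. Sequence farther than 250 bases before the start was not searched, so 0 matches here does not mean that a gene lacks the element. Capitals mark matches to the CArG box.
Fos: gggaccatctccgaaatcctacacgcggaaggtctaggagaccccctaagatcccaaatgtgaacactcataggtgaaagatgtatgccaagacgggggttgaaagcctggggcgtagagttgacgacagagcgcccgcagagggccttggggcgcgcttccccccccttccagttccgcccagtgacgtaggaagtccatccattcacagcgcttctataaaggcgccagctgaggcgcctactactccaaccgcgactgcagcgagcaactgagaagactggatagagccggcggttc
Acta1: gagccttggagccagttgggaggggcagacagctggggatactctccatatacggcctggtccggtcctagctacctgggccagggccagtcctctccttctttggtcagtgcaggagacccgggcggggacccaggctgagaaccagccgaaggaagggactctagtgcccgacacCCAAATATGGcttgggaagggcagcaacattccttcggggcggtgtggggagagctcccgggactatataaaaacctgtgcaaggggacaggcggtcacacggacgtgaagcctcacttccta
Dusp5: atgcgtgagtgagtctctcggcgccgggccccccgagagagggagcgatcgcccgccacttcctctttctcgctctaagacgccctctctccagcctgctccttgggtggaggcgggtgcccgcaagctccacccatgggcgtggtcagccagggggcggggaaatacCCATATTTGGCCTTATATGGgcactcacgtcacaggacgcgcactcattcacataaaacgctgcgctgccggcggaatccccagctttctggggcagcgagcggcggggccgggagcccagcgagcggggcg
The CArG box was searched by its consensus on both strands, with no match overlapping another here. Acta1 held 1, starting 73 bases before the start, Dusp5 held 2, starting 82 and 72 bases before it, and Fos held 0 in this window. Of 32851 RefSeq promoter windows 1.63% held a CArG box, and 1.54% of the tested genes with a window did. The cyclic AMP response element, searched on both strands only as the exact sequence TGACGTCA, was in 1.79% of windows and in none of the 3 shown. Forms that differ from it in any letter were not counted, so its absence here covers the exact sequence alone.

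Slc44a4 had the largest late difference of the 5 genes that passed, and it lay at 0 minutes. This gene of the choline transporter-like family had intensities of 16.1, 131 and 81.4 in wild-type and 231, 132 and 164 in mutant cells. With the offset of 16, the genotypes were 7.69-fold apart at 0 minutes and 1.01-fold at 60 minutes. Its difference in response was -2.93 and -2.06 (late -2.49 ± 0.26; adjusted p = 6.52e-06). The wild-type value at 0 minutes did not reach the filter level. With an offset of 64 the late difference of Slc44a4 was -1.55 (adjusted p = 0.0745).

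Tagln and Sctr were the reverse, with a low mutant value at 0 minutes. Tagln encodes transgelin, an actin-binding protein of contractile cells and an SRF target, and had intensities of 58.3, 570 and 871 in wild-type and 2.21, 316 and 405 in mutant cells. With the offset of 16, mutant values were below wild-type ones by 4.08-fold at 0, 1.76-fold at 60 and 2.11-fold at 120 minutes. The higher response of mutant cells (1.21 and 0.95; late 1.08 ± 0.18; adjusted p = 0.0105) therefore depends on the value of 2.21, and offsets of 1 and 64 gave 3.23 and 0.018. Sctr, the receptor for the gut hormone secretin, had 73.6, 67.1 and 53.2 in wild-type and 16.3, 74.1 and 47.2 in mutant cells. Its late difference was 1.47 ± 0.27 (adjusted p = 0.0323), and 0.78 at offset 64 (adjusted p = 0.56). In both genes the mutant array at 0 minutes was the 1 value below the filter level.

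Malat1, a long noncoding RNA of the nucleus, was the brightest gene that passed. Its intensity was 6155, 3911 and 5395 in wild-type and 4000, 5722 and 4796 in mutant cells, so the genotypes crossed between 0 and 60 minutes. The difference in response was 1.17 and 0.45 (late 0.81 ± 0.15; adjusted p = 0.0323). Its 6 other probe sets, all above the filter level, had late differences from 0.10 to 1.14. The call was lost when all probe sets were averaged (0.67; adjusted p = 0.081). With every set fitted on its own this set did not pass (adjusted p = 0.135), but another Malat1 set did. Of the 4 control ratios, those of Actb and Tfrc were likewise lower in mutant cells at 0, higher at 60 and lower at 120 minutes. That of Pcx was lower at all times and that of Gapdh was lower at 0 and higher at 120 minutes. Their part in this result was not tested.

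The other genes named by size did not pass. On the higher side this was Lncpint, a noncoding RNA (intensities of 99.3, 29.5 and 51.7 in wild-type and 46.4, 25.4 and 46.3 in mutant cells; late 0.76 ± 0.27). On the lower side, Epcam, an epithelial adhesion molecule, had 160, 211 and 277 in wild-type and 263, 204 and 220 in mutant cells, with a late difference of -0.85 ± 0.17 (adjusted p = 0.0786). It passed with offset 1 (adjusted p = 0.0301), without the filter (0.0353), with the 60th percentile filter (0.0018) and with median centring (0.0405). It did not pass with quantile normalization (0.225), with offset 64 (0.56), without the trend (1.0), with every probe set on its own (0.183) or with all probe sets averaged, where the late difference was -0.50 (1.0). The other Epcam probe set had a mean intensity of 4.28, under the filter level, and a late difference of -0.16. Of 7 epithelial markers Cdh1 was the other one tested, with a late difference of -0.13. Krt8, Krt18, Krt19, Cldn4 and Cldn7 were below the filter level. Plcb1, the phospholipase C that Gq activates, had 59.5, 91.7 and 85.9 in wild-type and 79.3, 53.4 and 63.3 in mutant cells (late -0.83 ± 0.24), but its other probe set above the filter level gave -0.18 and 3 dim ones gave 0.25 to 0.31. The remaining genes were Piezo2, a mechanosensitive channel (-0.95), Ccdc38 (-0.92), Agbl5, a tubulin deglutamylase (-0.89), Slc22a12, a urate transporter (-0.89), Akr1c12, an aldo-keto reductase (-0.79), and Sptlc3, a subunit of serine palmitoyltransferase (-0.70). Their adjusted p lay between 0.35 and 1.0, and dim probe sets of Agbl5, Slc22a12, Piezo2 and Sptlc3 had late differences above 0.

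Genes that passed or were 1.5-fold apart at both times, 28 in all, were sorted by how the genotype difference moved. All 4 of the higher genes and 15 of the 24 lower ones had a difference at 0 minutes that was smaller at the later times. Another 5 lower genes, Agbl5, Ccdc38, Mapk8ip2, Plcb1 and Slc22a12, were higher in mutant cells at 0 minutes and lower later. The remaining 4, Fos, Arc, Acta1 and the chemokine-binding receptor gene Ackr4, opened after 0 minutes, and in each of them mutant cells were lower later. Over all 10916 genes tested, the difference closed for 2755 higher and 3466 lower genes, opened for 2494 and 2194, and crossed for 1 and 6. Since the difference in response subtracts the genotype difference at 0 minutes, a change with time and an error on 1 array of 0 minutes cannot be told apart for the genes whose difference closed. Of the 28 genes, 20 had a mean intensity under 100 and 13 had an array below the filter level.

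Genes that both genotypes induced gave the widest pattern. They were taken by their change averaged over both genotypes, which favours neither side. At 60 minutes, 150 genes stood at least 2-fold above 0 minutes. Their median change was log2 1.56 in wild-type and 1.55 in mutant cells, and the change was smaller in mutant cells for 68 of the 150 (45.3%, against 44.0% of all genes tested). With quantile normalization these shares were 56.7% and 57.0%. At 120 minutes, 228 genes stood at least 2-fold above 0 minutes, with a median change of 1.51 in wild-type and 1.35 in mutant cells. There the change was smaller in mutant cells for 172 of 228 (75.4%, against 57.5% of all genes), with a median difference in response of -0.16 against -0.031. For the 48 genes at least 4-fold above 0 minutes the median difference was -0.29, and 41 of 48 were below 0. At 60 minutes the genes at least 4-fold above 0 minutes were also 48, with a median of -0.041 and 30 below 0 (62.5%, against 44.0% of all genes). Genes at least 2-fold below 0 minutes at 120 minutes, 188 in number, had a median of -0.060. With an offset of 64 this class was chosen anew, held 90 genes and had a median of 0.013.

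**Figure D3:**
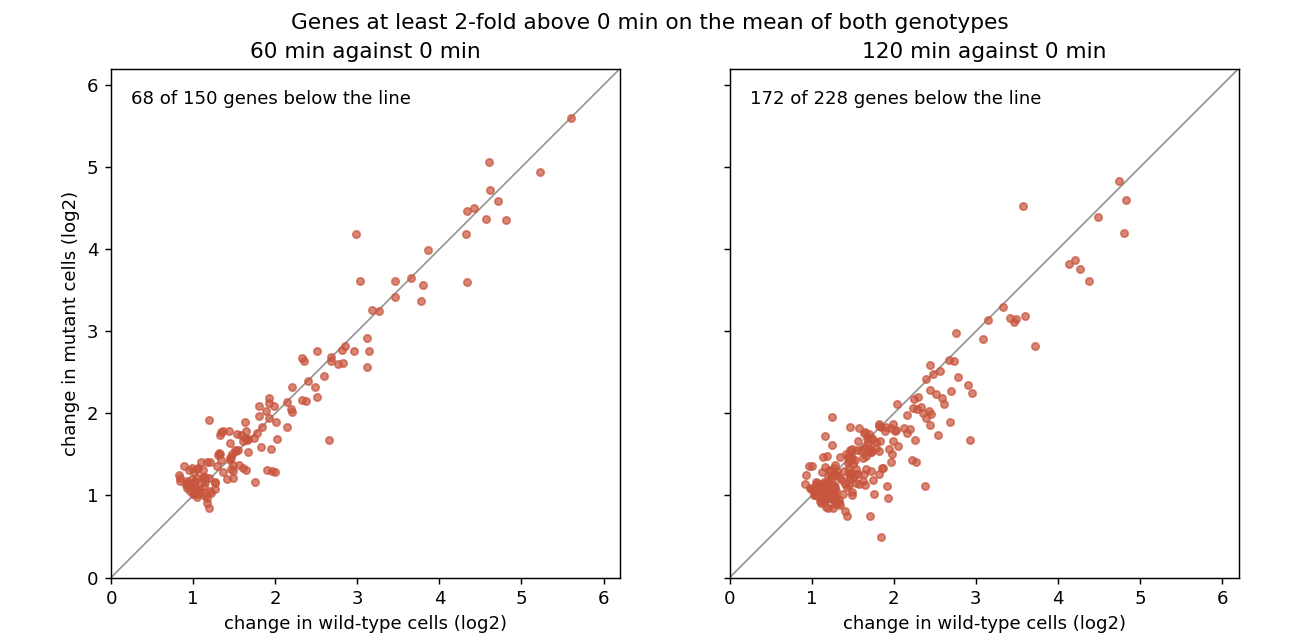
Change from 0 minutes (log2) in mutant against wild-type cells for genes at least 2-fold above 0 minutes on the mean of both genotypes, with 1 point per gene and the line of equal change. At 60 minutes 68 of 150 genes lie below the line and at 120 minutes 172 of 228.

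The genotype difference of these genes was also followed from 60 to 120 minutes, a quantity without the arrays of 0 minutes, although those arrays served to choose the genes. For the 228 genes the median genotype difference was -0.014 at 0, 0.052 at 60 and -0.15 at 120 minutes. From 60 to 120 minutes it moved by a median of -0.21, and downward for 203 of 228 genes (89.0%), against a median of -0.064 and 65.9% of all genes. Scaling moved the value for all genes to -0.099 with median centring and 0.014 with quantile normalization, and that for the 228 genes to -0.24 and -0.12, so the gap to all genes had the same direction under these scalings. With offsets of 1 and 64 the induced genes at 120 minutes were chosen anew, 257 and 175 in number. Their median difference in response at 120 minutes was -0.16 and -0.13. These are counts over genes with 1 array per group, with no test.

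Among the induced genes, the change from 0 to 120 minutes was at least 1.5-fold smaller in mutant cells for 17 and at least 1.5-fold larger for 2, or 7.46% and 0.877% of the class, against 0.861% and 0.412% of all genes. They were chosen after their values were seen. Flrt3, a membrane adhesion protein, had intensities of 144, 166 and 816 in wild-type and 126, 121 and 293 in mutant cells. Il11, a cytokine of the IL-6 family, had 25.1, 69.4 and 297 in wild-type and 21.4, 38.5 and 103 in mutant cells. The metalloprotease gene Adam19 had 179, 223 and 727 in wild-type and 203, 211 and 414 in mutant cells. In these 3 genes the genotypes were farther apart at 120 minutes than at 0 and at 60 minutes.

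Ereg, a ligand of the EGF receptor, was alike until 60 minutes (62.8 and 1674 in wild-type, 61.2 and 1728 in mutant cells) and apart at 120 (1618 and 929). Rgs16, an inhibitor of G protein signalling, had 24.2, 268 and 512 in wild-type and 36.9, 346 and 357 in mutant cells. Nppb, a natriuretic peptide gene, had 107, 1702 and 937 in wild-type and 86.8, 1195 and 473 in mutant cells. Mutant cells held less of all 3 at 120 minutes. Another Rgs16 probe set gave -1.52 as difference in response at 120 minutes, against -0.90 at the set used. The other genes with a smaller change were Rgcc, Gm9706, Fosb, Acta1, the hyaluronan synthase Has1, Arc, Amigo1, Gprc5a, Mtcl1, Nr4a3 and Ier5, with differences in response from -1.35 to -0.60. A smaller change is not always a lower level, and Gm9706 at 120 minutes stood at 151 in wild-type and 149 in mutant cells. The change was larger in mutant cells for Tagln, whose level was nevertheless lower there at every time, and for Slc30a1, a zinc exporter. Slc30a1 had 296, 1135 and 724 in wild-type and 341, 1444 and 1367 in mutant cells. At 60 minutes the change was smaller by this measure for 6 induced genes (Hes1, Arc, Acta1, Fos, Amigo1 and the cardiac actin Actc1) and larger for 2 (Tagln and Cdk5r1). These are 4% and 1.33% of that class, against 0.962% and 0.275% of all genes. Hes1 was under the filter level at 0 minutes in both genotypes (14.8 in wild-type and 3.18 in mutant cells). Without the offset its rise to 60 minutes (178 and 45.3) was not smaller in mutant cells.

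Receptors and G proteins showed little difference in response. Lpar1 itself had intensities of 1335, 1290 and 1289 in wild-type and 1496, 1514 and 1438 in mutant cells, higher in mutant cells at every time, and its late difference was 0.030 ± 0.11 (adjusted p = 1.0). Its other 2 probe sets gave 0.10 and 0.19. Of 16 tested genes of lysophosphatidic acid receptors and metabolism 0 passed, and their median late difference was -0.033, against -0.0061 for all genes tested. Plpp3, which dephosphorylates lysophosphatidic acid, had the largest value (-0.35 ± 0.17, with -0.06 at 60 and -0.65 at 120 minutes), but its other probe set above the filter level gave 0.027. It was followed by S1pr1, a sphingolipid receptor gene (0.31). Of 20 G protein and RGS genes 0 passed (median -0.015), with Rgs16 at -0.47 ± 0.23. At an unadjusted p under 0.05 by limma, 1 gene of the first list was lower and 0 of the second (2.16% of all genes tested were).

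Immediate early transcription factors differed by member. Of 33 tested, 1 passed, Fos, and 8 were lower and 2 higher at an unadjusted p under 0.05 (2.16% and 1.37% of all genes tested did so). The median late difference was -0.070, with 21 of 33 below 0 (63.6%, against 51.9% of all genes). Fosb, a relative of Fos that likewise forms AP-1 with JUN proteins, had intensities of 24.1, 1109 and 178 in wild-type and 33.3, 991 and 115 in mutant cells (late -0.66 ± 0.19; adjusted p = 0.739). The orphan nuclear receptor gene Nr4a3 had 7.07, 300.0 and 629 in wild-type and 5.71, 209 and 382 in mutant cells (-0.51 ± 0.20). Neither Fosb nor Nr4a3 reached the filter level at 0 minutes in either genotype. The related Nr4a2 and Nr4a1 had late differences of -0.33 and -0.0043, and the AP-1 genes Jun, Junb and Fosl2 had 0.031, -0.15 and 0.0068. Egr1 had -0.26, Egr2 -0.25 and Egr3 -0.17. Among members above 0, Ier5l had 0.36, Id1 0.25 and Klf4 0.24. The members after Nr4a3 are named to show the span within families and were chosen after their values were seen.

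**Figure D4:**
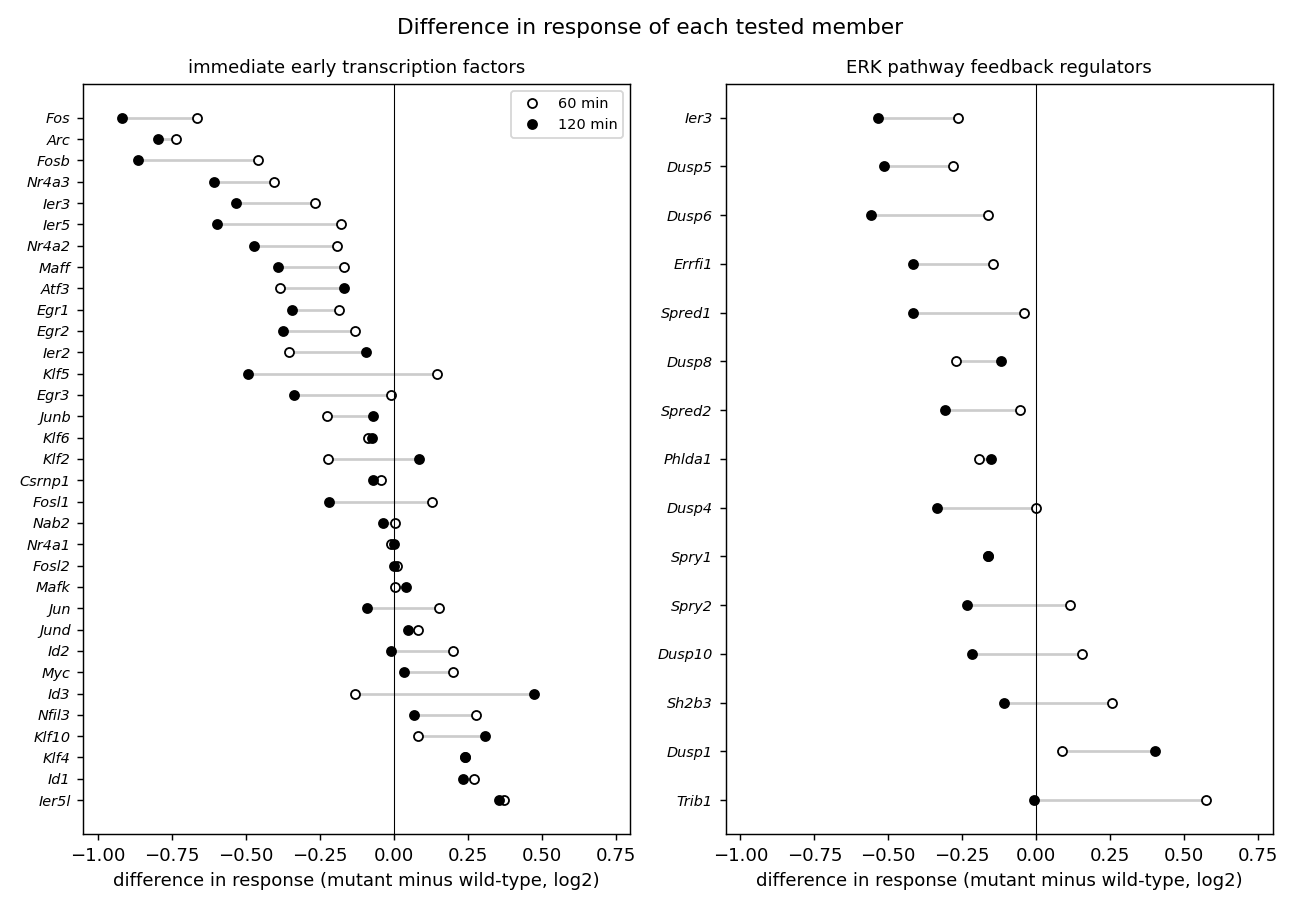
Difference in response (mutant minus wild-type, log2) at 60 minutes (open) and 120 minutes (filled) of the 33 tested immediate early transcription factors and the 15 tested feedback regulators of the ERK pathway, from single arrays. Fos, Arc and Fosb lie lowest among the former, and 14 of the 15 feedback genes lie below 0 at 120 minutes.

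Feedback regulators of the ERK pathway had differences in response below 0 mainly at 120 minutes. Of 15 tested 0 passed. At an unadjusted p under 0.05 by limma 4 were lower and 1 higher (2.16% and 1.37% of all genes tested were). Their median difference in response was -0.055 at 60 and -0.23 at 120 minutes, where 14 of 15 were below 0 (93.3%, against 57.5% of all genes). Induced genes as a whole moved the same way. Of those at least 2-fold above 0 minutes at 120 minutes, which include Dusp5, Dusp6 and Errfi1, 75.4% were below 0 (median -0.16). Of those at least 4-fold above, 85.4% were (median -0.29). Dusp6, a phosphatase of ERK, had intensities of 497, 2853 and 1790 in wild-type and 587, 2996 and 1425 in mutant cells (late -0.36 ± 0.13). Dusp5, the nuclear ERK phosphatase whose promoter is shown above, had 19.1, 1297 and 660 in wild-type and 32.4, 1474 and 638 in mutant cells (-0.40 ± 0.16), with its 0 minute values under the filter level. For both genes mutant values were the higher ones at 0 and 60 minutes and the lower ones at 120. Ier3, an early response gene that acts on ERK, had -0.40, and the pseudokinase gene Trib1 had 0.28, a sign that was not the same under every alternative. Errfi1, an inhibitor of the EGF receptor, had -0.28, and Dusp1, which acts on several MAP kinases, had 0.25, both chosen after their values were seen.

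SRF and MRTF target genes of the cytoskeleton had values on both sides of 0. Of 23 tested, 1 passed as higher, Tagln. At an unadjusted p under 0.05 by limma 3 were higher and 4 lower (1.37% and 2.16% of all genes tested were). The median late difference was -0.041. Actin isoforms were unlike each other: Acta1 had -0.76, Actc1 -0.36, the cytoplasmic actin Actg1 -0.35, the smooth muscle actins Actg2 and Acta2 -0.25 and -0.021, and Actb -0.041. Actg1 had an adjusted p of 0.085 by limma and passed with the 60th percentile filter and with all probe sets averaged. An Actb probe set passed when every probe set was fitted on its own. Zyx and Fhl2, adaptors of focal adhesions, had 0.37 and 0.39, and Srf itself had -0.12. Tuft1 had -0.45. Zyx, Srf and the actins other than Acta1 were chosen after their values were seen. Of 22 YAP and TEAD targets, which the same actin changes regulate, 0 passed (median -0.010), with the coagulation initiator F3 at -0.41 ± 0.12 and the matricellular gene Ccn1 at -0.35 ± 0.12. The 3 other Ccn1 sets above the filter level gave -0.51, -0.24 and -0.11.

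The CArG box was compared with the response of induced genes. Of the 110 genes at least 2-fold above 0 minutes at 60 minutes that had a promoter window, 13 held a CArG box (11.8%, against 1.54% of tested genes). Their median difference in response at 60 minutes was -0.032, and 0.012 for the 97 without one. Below 0 were 10 of the 13 and 43 of the 97, against 44.0% of all genes tested. At 120 minutes the medians were -0.13 for 14 genes with and -0.16 for 162 genes without a CArG box. Below 0 were 12 of the 14 and 118 of the 162, against 57.5% of all genes tested. These counts were not tested. A match describes the letters of this window and shows no bound factor. Genes without a match, Fos among them at 60 minutes, were not searched outside this window.

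Secreted signals and genes that act on mRNA were next. Of 18 growth factors and receptors 0 passed, with a median of 0.070 at 60 and -0.18 at 120 minutes, and Ereg, Tgfa and Vegfa had late differences of -0.34, -0.34 and -0.29, with -0.016 at another Vegfa set. Of 19 inflammatory and NF-kB target genes 0 passed (median 0.027), led by Il11 (-0.89 ± 0.28; adjusted p = 0.957) and the chemokine genes Cxcl1 and Cxcl5 (-0.46 each). Of 11 mRNA decay and antiproliferative genes 0 passed. Their median late difference was -0.19, with 9 below 0 (81.8%, against 51.9% of all genes tested). Among them Zfp36, which promotes decay of AU-rich mRNAs, had intensities of 224, 838 and 193 in wild-type and 230, 721 and 140 in mutant cells (-0.35 ± 0.16). Of 22 MYC and ribosome biogenesis genes 0 passed, with a median of 0.16 at 60 and 0.063 at 120 minutes. The late difference was below 0 for 6 of them (27.3%, against 51.9% of all genes tested). Wdr43 and Bop1, which act in pre-ribosome assembly, had 0.27 and 0.25, and Rrs1 had -0.30. Other sets above the filter level gave -0.067 for Wdr43 and 0.014 for Rrs1.

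**Figure D5:**
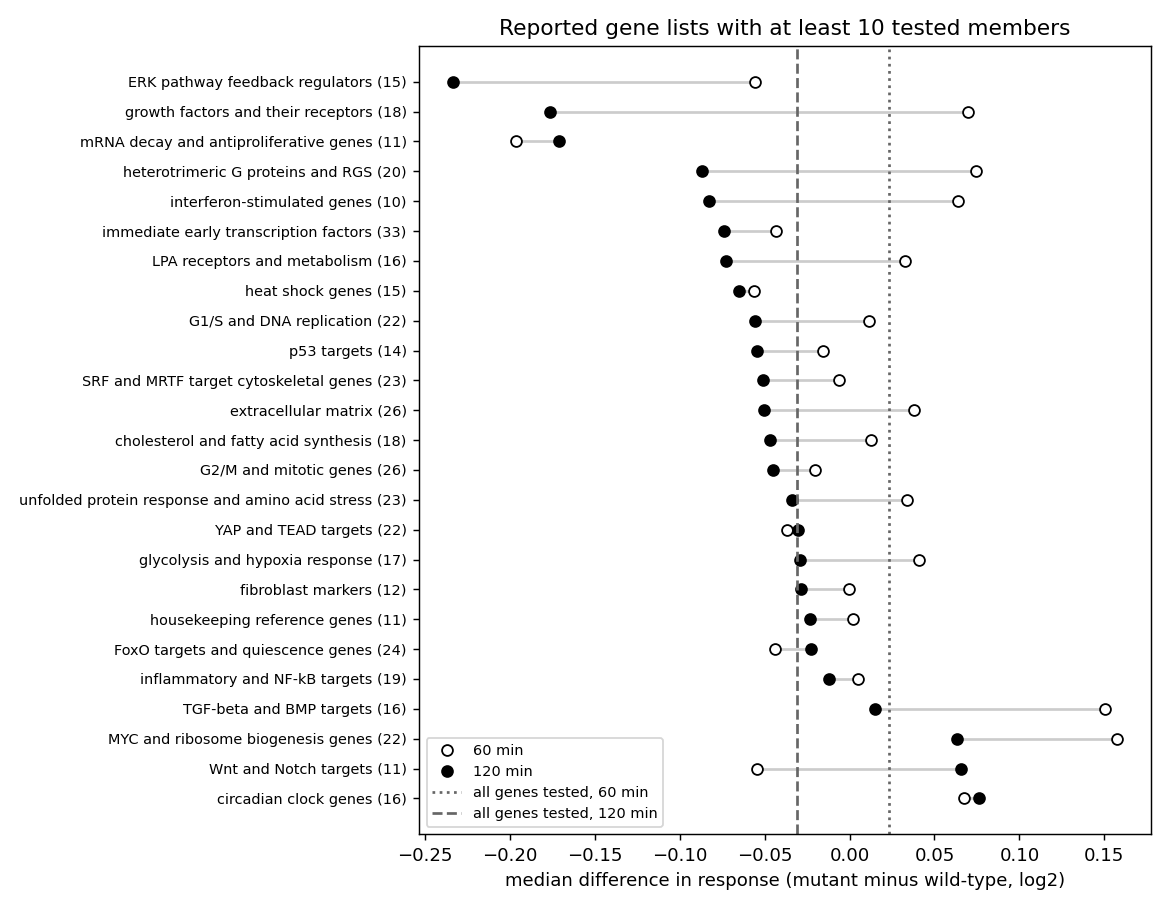
Median difference in response (mutant minus wild-type, log2) at 60 minutes (open) and 120 minutes (filled) of each reported gene list with at least 10 tested members, with the number tested in brackets and the medians of all genes tested as vertical lines. ERK feedback regulators have the lowest median at 120 minutes, -0.23, and circadian clock genes the highest, 0.076.

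Programmes further from the receptor gave 0 passing members. The median late difference was 0.094 over 16 circadian clock genes, with Noct, Bhlhe40 and Rora at -0.25, 0.23 and 0.22 (4 other Rora sets above the filter level gave -0.063 to 0.14), and 0.084 over 16 TGF-beta and BMP targets, with Tgif1 at 0.28 and Ltbp2 at -0.32. It was 0.044 over 11 Wnt and Notch targets. Hes1, a Notch target, had intensities of 14.8, 178 and 104 in wild-type and 3.18, 45.3 and 34.8 in mutant cells, lower in mutant cells at every time (-0.77 ± 0.29). Both 0 minute values of Hes1 were under the filter level, and without the offset its rise was not smaller in mutant cells at either later time. Of 24 FoxO targets and quiescence genes the median was 0.0079, with Arrdc3 at -0.44 and Bmf at 0.29. Extracellular matrix (26 genes, median -0.0089), unfolded protein response (23, -0.015), cholesterol and fatty acid synthesis (18, -0.021), glycolysis and hypoxia (17, -0.030), p53 targets (14, -0.026), interferon-stimulated (10, -0.013), G1/S (22, -0.022) and G2/M genes (26, -0.034) had medians near that of all genes. Heat shock genes had a median of -0.075 over 15 genes, with 11 below 0 (73.3%, against 51.9% of all genes tested). The largest members were Plk3 (-0.54) among p53 targets and Stat2 (0.52) among interferon-stimulated genes. Housekeeping genes had a median of -0.017 over 11 genes. List medians this close to 0 change sign between scalings, as those of the matrix, housekeeping, YAP, FoxO and cholesterol lists did, while those of the ERK feedback, immediate early, mRNA decay, growth factor, ribosome biogenesis, TGF-beta and circadian lists did not with median centring or quantile normalization. Of the markers of other cells, 4 of 7 macrophage and leukocyte, 1 of 6 endothelial and 2 of 6 neural markers were tested, and 0 passed. In the matrix list Timp1, a protease inhibitor, had 0.25, and in the G2/M list the kinesin Cenpe had 0.36 and Cdca8 -0.29. Their other sets above the filter level gave -0.025 for Cenpe and -0.030 and 0.051 for Cdca8.

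Some genes had a genotype difference that changed between 60 and 120 minutes, which no test could assess with 1 array per group. The largest changes downward were those of E2f8, a transcription factor of the cell cycle, Rasgrp2 and Cd8a. E2f8 had intensities of 91.0, 111 and 256 in wild-type and 86.5, 90.1 and 86.7 in mutant cells, so the wild-type array at 120 minutes stood apart. The largest changes upward were those of Tex35, Slc9a3r2 and Ctrb1. Ctrb1 had 280, 280 and 149 in wild-type and 181, 117 and 207 in mutant cells. From 60 to 120 minutes the genotype difference moved by -1.24 for Rasgrp2 and 1.72 for Slc9a3r2, and by -0.78 and 0.19 at their other probe sets above the filter level.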

How the data were processed

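Total RNA of the 6 groups was measured on Affymetrix arrays. The authors deposited 1 linear intensity for each probe set and array. They summarised probes by PLIER in version 1.14.3.1 of Affymetrix Power Tools, per the submitters' processing notes. Background correction and scaling between arrays are not given in the sources used here. No further scaling was applied. Symbols came from the platform annotation, with 34741 of 34945 probe sets matched to RefSeq genes of GRCm38.p6. A further 932 probe sets with several genes and 9160 with none, and 64 controls, were left out.

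The model in limma 3.58.1 (R 4.3.3) had genotype, 60 minutes, 120 minutes and 1 term for mutant arrays after 0 minutes, with a trend in shrinkage. Tests were two-sided, adjusted over 10916 genes, and the procedure was tested on simulated data. Named genes were the 12 largest in each direction by the smaller of both differences (those that passed first, then those at least 1.5-fold apart at both times), Lpar1, up to 4 per list, and the 3 largest changes from 60 to 120 minutes in each direction. The members and the 31 lists were chosen with earlier results of these data known. The result of 1 list is not reported here. Alternatives were offset, filter, trend, scaling, use of probe sets, fold and omission of arrays. Scaling, offset and omission of the 0 minute arrays for the induced genes were added after the data were seen.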

Additional observations from a re-analysis of the deposited data

Results flagged for a closer look

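The time response differed between the genotypes, by limma's test of the late difference, for 5 genes. The response in mutant cells was lower for Slc44a4 (late difference -2.49, adjusted p = 6.52e-06) and Fos (-0.79, adjusted p = 0.0323). It was higher for Sctr (1.47, adjusted p = 0.0323), Tagln (1.08, adjusted p = 0.0105) and Malat1 (0.81, adjusted p = 0.0323). The level itself was not lower in mutant cells at any time for Slc44a4, and was lower there at every time for Tagln. Among the 5 genes, Fos was the one whose genotypes were close at 0 minutes (log2 -0.088) and whose values all lay above the filter level.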

How the results depend on the processing

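The direction of the 5 genes that passed was the same under every alternative that gave a value, while the number of calls was not stable. Higher calls, 3 as reported, were 5 with offset 1, with no filter, with the 60th percentile filter, with median centring and with every probe set fitted on its own. Lower calls, 2 as reported, were 4 with the 60th percentile filter. Both were 0 with offset 64, without the trend and with quantile normalization. Higher genes 1.5-fold apart at both times, 3 as reported, were 11 and 1 with offsets of 1 and 64, 27 with no filter, 1 with the 60th percentile filter, 25 over single probe sets and 1 at 2-fold. Lower ones, 24 as reported, were 37, 5, 58, 2, 39 and 1 in the same order, and 12 with all probe sets averaged. Leaving out 1 array of a later time leaves the other time alone, a value with no test: 30 to 45 higher and 94 to 105 lower genes. Without an array of 0 minutes no difference in response can be formed. Over the lists, 174 medians under an alternative kept their sign and moved by less than the SD of the list's 60 and 120 minute medians, and 70 did not. Low signal limits the genes with the largest differences, of which 13 of 28 had an array below the filter level. No paired analysis was possible because each group had 1 array and the labels carry no replicate numbers; time entered the model as a term.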

Other observations

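Probe sets outside the comparison were examined in the same way. Of 2794 at or above the filter level that were paired with several genes or with none, 6 were at least 1.5-fold higher (0.215%) and 5 at least 1.5-fold lower (0.179%) in their response in mutant cells at both later times. The lowest of these, a probe set paired with no gene, had intensities of 31.4, 32.2 and 30.0 at 0, 60 and 120 minutes in wild-type and 245, 116 and 110 in mutant cells. The highest, paired with several genes, had 143, 110 and 145 in wild-type and 83.3, 222 and 206 in mutant cells.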
